A study of Oryza sativa with 27 samples.

Results

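Transcript levels of 10 rice loci listed for glutathione synthesis and sulfate assimilation were followed in cell suspension cultures treated with a herbicide safener, a compound that protects a crop from herbicide injury. The loci were taken by identifier from a count table of 46102 loci, and all 10 passed the filter on low counts that left 26465 loci. The list was drawn up to cover 6 enzymes: glutamate-cysteine ligase, glutathione synthetase, glutathione reductase, ATP sulfurylase, APS reductase and sulfite reductase. The count table and the reference gene table used here do not pair the LOC_Os identifiers with enzymes, and 0 of the identifiers matched the reference, so the loci are given by identifier and no enzyme is assigned to any of them. For the same reason the list's name could not be checked against the data, no other genes of the pathway could be counted, and no sequence is shown.

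The cultures were Oryza sativa cultivar Tsukinohikari cells, 5 days old when dosed. Each received metcamifen or cyprosulfamide at 5 µM from a stock in dimethyl sulfoxide (DMSO), or DMSO alone. Cells were taken after 30, 90 and 240 min, which gives 9 groups of 3 biological replicates and 27 libraries of polyA RNA. The cells of a suspension carry no organ or whole-plant structure.

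Glutathione is the main soluble thiol of plant cells. Glutamate-cysteine ligase joins glutamate to cysteine, glutathione synthetase adds glycine, and glutathione reductase returns oxidised glutathione to its reduced form with NADPH. The sulfur of the cysteine comes from sulfate: ATP sulfurylase activates it to adenosine phosphosulfate (APS), APS reductase reduces this to sulfite, and sulfite reductase reduces sulfite to sulfide. In cereals, safeners are known for raising glutathione transferases, the enzymes that couple herbicides to glutathione, and so the supply of the thiol is of interest beside them.

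Library totals ranged from 5516373 to 43747251 counts, and the 10 loci had from 52 to 17655 counts in any library. Levels are given as CPM, in which each count is divided by its library's total after TMM adjustment, which compare a locus between libraries but not 1 locus with another, since transcript length was not used. On the first principal component of all libraries (27.4% of variance), the DMSO libraries numbered 1 stood apart, at 16.9 to 28.8 next to -12.9 to -3.38 for the other DMSO libraries. Metcamifen libraries numbered 1 lay at -38.2 to -15.1 and the other metcamifen libraries at -23.8 to 3.43. Cyprosulfamide libraries numbered 1 lay at 14.1 to 21.97 and the others at -0.228 to 10.3. Each call was therefore also made with the libraries numbered 2 and 3 alone, and the calls that this ends are named beside the result.

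Metcamifen raised loci of the list at each time and lowered 0 of the 10, where 0.185%, 1.45% and 1.59% of all loci were called lower at 30, 90 and 240 min. By edgeR's quasi-likelihood test (adjusted p under 0.05 over all loci tested), 4 of 10 were higher than in DMSO at 30 min, where 1.16% of all loci were called higher. At 90 min 5 of 10 were higher (4.49% of all loci), and at 240 min 7 of 10 (3.06% of all loci). Abundant loci are easier to call, and among the 14400 loci with a mean of at least 10 CPM the shares called higher were 1.28%, 4.96% and 3.57% at the 3 times. The median log2 fold change of the 10 loci was 0.20, 0.52 and 0.65, next to -0.0037, -0.011 and -0.0069 over all loci. Of the 7 loci called at 1 or more times, 3 were called at all 3 times, 3 at a pair of times and 1 at 240 min alone. How many of all loci were called at 1 or more times, or at all 3, was not counted. This split therefore describes the listed loci alone. In bulk RNA, a larger share of responding cells and more transcript per cell cannot be told apart.

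**Figure D1:**
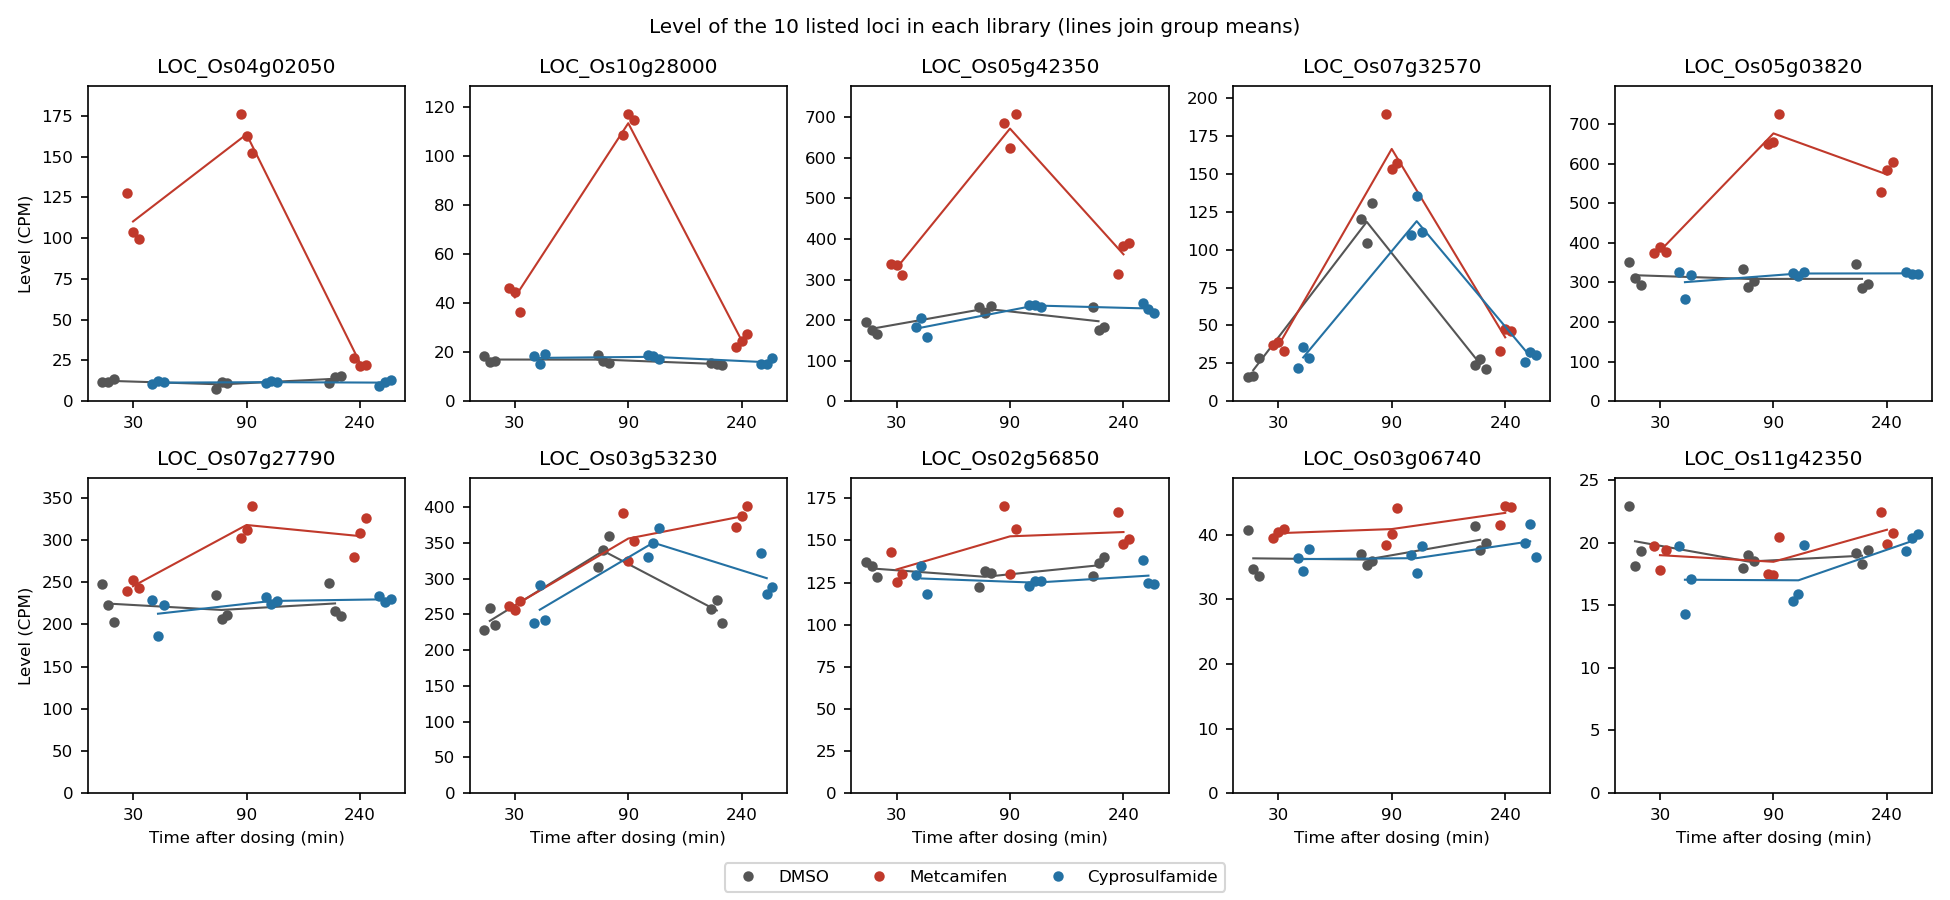
Level in CPM (vertical axis, from 0, a scale of its own for each locus) of each of the 10 loci in each of the 27 libraries, by time after dosing (categories of unequal spacing in min). Points are libraries and lines join group means; at LOC_Os04g02050 the metcamifen libraries reach 152 to 176 CPM at 90 min while no DMSO or cyprosulfamide library passes 15.3 CPM.

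The summed share of library counts that fell on the 10 loci was 0.120 ± 0.00752% in DMSO and 0.158 ± 0.00270% under metcamifen at 30 min (SD, n = 3). At 90 min it was 0.143 ± 0.00608% and 0.258 ± 0.0110%, and at 240 min 0.123 ± 0.00959% and 0.195 ± 0.0127%. The metcamifen libraries lay above the DMSO libraries at every time, and no value of one group reached the other. Cyprosulfamide libraries took 0.119 ± 0.00429%, 0.148 ± 0.00205% and 0.136 ± 0.00462% at the 3 times.

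LOC_Os04g02050 gave the largest response of the 10. Under metcamifen the 3 libraries held 127, 104 and 99.6 CPM at 30 min, 176, 163 and 152 CPM at 90 min, and 26.8, 21.4 and 22.2 CPM at 240 min. The DMSO libraries held 12.04, 12.05 and 13.5 CPM, then 7.67, 11.96 and 11.4 CPM, then 11.4, 14.6 and 15.3 CPM. The groups did not overlap at any time, and the high level of the first 90 min had mostly gone by 240 min. The log2 fold change was 3.13 at 30 min (SE 0.139, adjusted p = 3.24e-13), 3.98 at 90 min (SE 0.140, adjusted p = 1.51e-15) and 0.78 at 240 min (SE 0.141, adjusted p = 0.00104). As folds these are 8.76, 15.8 and 1.71. Of all loci tested, 41 had a larger log2 fold change at 30 min, 61 at 90 min and 741 at 240 min. The call at 240 min ended when the fit held just the 6 libraries compared (adjusted p = 0.0533).

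LOC_Os10g28000 was raised at all 3 times, with its highest level at 90 min. The metcamifen libraries held 46.0, 44.5 and 36.5 CPM at 30 min, 109, 117 and 114 CPM at 90 min, and 22.2, 24.5 and 27.4 CPM at 240 min. The DMSO libraries lay between 14.97 and 18.8 CPM at all 3 times, so the control level was nearly flat and every metcamifen library lay above it. The log2 fold change was 1.31 (SE 0.102, adjusted p = 4.44e-09), then 2.74 (SE 0.101, adjusted p = 1.94e-15), then 0.69 (SE 0.104, adjusted p = 0.000101). At 240 min the 95% interval was 0.48 to 0.91, and that of LOC_Os04g02050 was 0.48 to 1.07. These calls held under every alternative tried.

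LOC_Os05g42350 was raised at all 3 times. Metcamifen libraries held 338, 336 and 310 CPM at 30 min against 195, 175 and 166 CPM in DMSO. At 90 min they held 686, 624 and 707 CPM against 232, 217 and 236 CPM, and at 240 min 313, 384 and 390 CPM against 232, 175 and 184 CPM. The groups did not overlap at any time, and the 90 min level stood above both others. The folds were 1.84 (log2 0.88, SE 0.102, adjusted p = 3.10e-06), 2.95 (log2 1.56, SE 0.101, adjusted p = 6.00e-11) and 1.84 (log2 0.88, SE 0.102, adjusted p = 3.24e-06). Each call held under every alternative tried.

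At 4 of the loci, LOC_Os04g02050, LOC_Os10g28000, LOC_Os05g42350 and LOC_Os05g03820, all 9 metcamifen libraries lay above all 18 other libraries, whatever the time. Over all loci tested, 0.627% showed this.

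LOC_Os05g03820 and LOC_Os07g27790 were called at 90 and 240 min and not at 30 min. LOC_Os05g03820 held 373, 389 and 377 CPM under metcamifen at 30 min against 351, 310 and 294 CPM in DMSO. These libraries did not overlap, but the difference did not pass (log2 0.25, SE 0.0878, adjusted p = 0.310). At 90 min it held 651, 655 and 724 CPM against 334, 288 and 304 CPM, and at 240 min 528, 585 and 605 CPM against 347, 285 and 295 CPM. At both later times every metcamifen library was far above every DMSO library. The fold was 2.19 at 90 min (log2 1.13, SE 0.0876, adjusted p = 1.19e-09) and 1.85 at 240 min (log2 0.89, SE 0.0876, adjusted p = 2.16e-07). With the libraries numbered 2 and 3 alone, the 30 min difference also passed (log2 0.34, adjusted p = 0.0251).

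LOC_Os07g27790 moved in the same order with smaller folds. It stood at 245 ± 6.67 CPM under metcamifen and 225 ± 22.4 CPM in DMSO at 30 min (SD, n = 3), where the libraries overlapped (adjusted p = 0.813). At 90 min it held 302, 311 and 340 CPM against 235, 206 and 211 CPM (fold 1.46, log2 0.55, SE 0.0856, adjusted p = 8.63e-05). At 240 min it held 280, 308 and 326 CPM against 249, 215 and 210 CPM (fold 1.35, log2 0.44, SE 0.0856, adjusted p = 0.00213). The groups did not overlap at these times, and at 240 min the lowest metcamifen library held 280 CPM and the highest DMSO library 249 CPM. The 240 min call ended with just the 6 libraries compared in the fit (adjusted p = 0.0825).

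LOC_Os07g32570 moved chiefly with time after dosing, in every treatment. In DMSO it held 16.2, 16.9 and 28.4 CPM at 30 min, 120, 104 and 131 CPM at 90 min, and 24.1, 28.1 and 21.4 CPM at 240 min. Metcamifen libraries held 37.4, 39.3 and 32.9 CPM, then 189, 153 and 157 CPM, then 33.0, 47.4 and 46.1 CPM. Both treatments thus had a peak at 90 min, and the metcamifen libraries lay above the DMSO libraries of the same time without overlap. Against DMSO the fold was 1.78 at 30 min (log2 0.83, SE 0.193, adjusted p = 0.0220), 1.41 at 90 min, which did not pass (log2 0.49, SE 0.179, adjusted p = 0.137), and 1.71 at 240 min (log2 0.78, SE 0.189, adjusted p = 0.0152). The 30 min call ended without DMSO_30min replicate 1 or 2 or Metcamifen_30min replicate 1 or 2 (adjusted p up to 0.186). The 240 min call ended without DMSO_240min replicate 3 or Metcamifen_240min replicate 2 or 3 (adjusted p up to 0.103). A fit to just the 6 libraries compared ended both (adjusted p = 0.166 and 0.0769) and called the 90 min difference (adjusted p = 0.0362).

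LOC_Os03g53230 was called at 240 min. Metcamifen libraries then held 372, 388 and 401 CPM against 257, 271 and 239 CPM in DMSO, a fold of 1.51 without overlap (log2 0.60, SE 0.0873, adjusted p = 7.46e-05). At 30 min its level was 263 ± 6.17 CPM under metcamifen and 241 ± 16.3 CPM in DMSO, and at 90 min 356 ± 33.8 and 339 ± 22.1 CPM (SD, n = 3). The libraries overlapped at both earlier times (adjusted p = 0.821 and 0.845). The difference at 240 min accompanied a DMSO level that had gone back towards that of 30 min while the metcamifen level had not.

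LOC_Os02g56850, LOC_Os03g06740 and LOC_Os11g42350 were not called at any time. Their folds against DMSO ran from 0.941 to 1.19, and their 95% intervals from 0.801 to 1.33. LOC_Os02g56850 came nearest, at 90 min, with 170, 130 and 157 CPM under metcamifen against 123, 132 and 131 CPM in DMSO (log2 0.25, SE 0.0809, adjusted p = 0.0798). The low library there was Metcamifen_90min replicate 2, and without it the difference passed (adjusted p = 0.00555). LOC_Os03g06740 held between 33.7 and 44.4 CPM in all 27 libraries and LOC_Os11g42350 between 14.3 and 22.9 CPM. At 240 min the metcamifen libraries of all 10 loci, these 3 included, lay above the DMSO libraries without overlap, which 10.7% of all loci showed. The same held for 5 of 10 at 30 min (6.38% of all loci) and 7 of 10 at 90 min (12.2%).

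**Figure D2:**
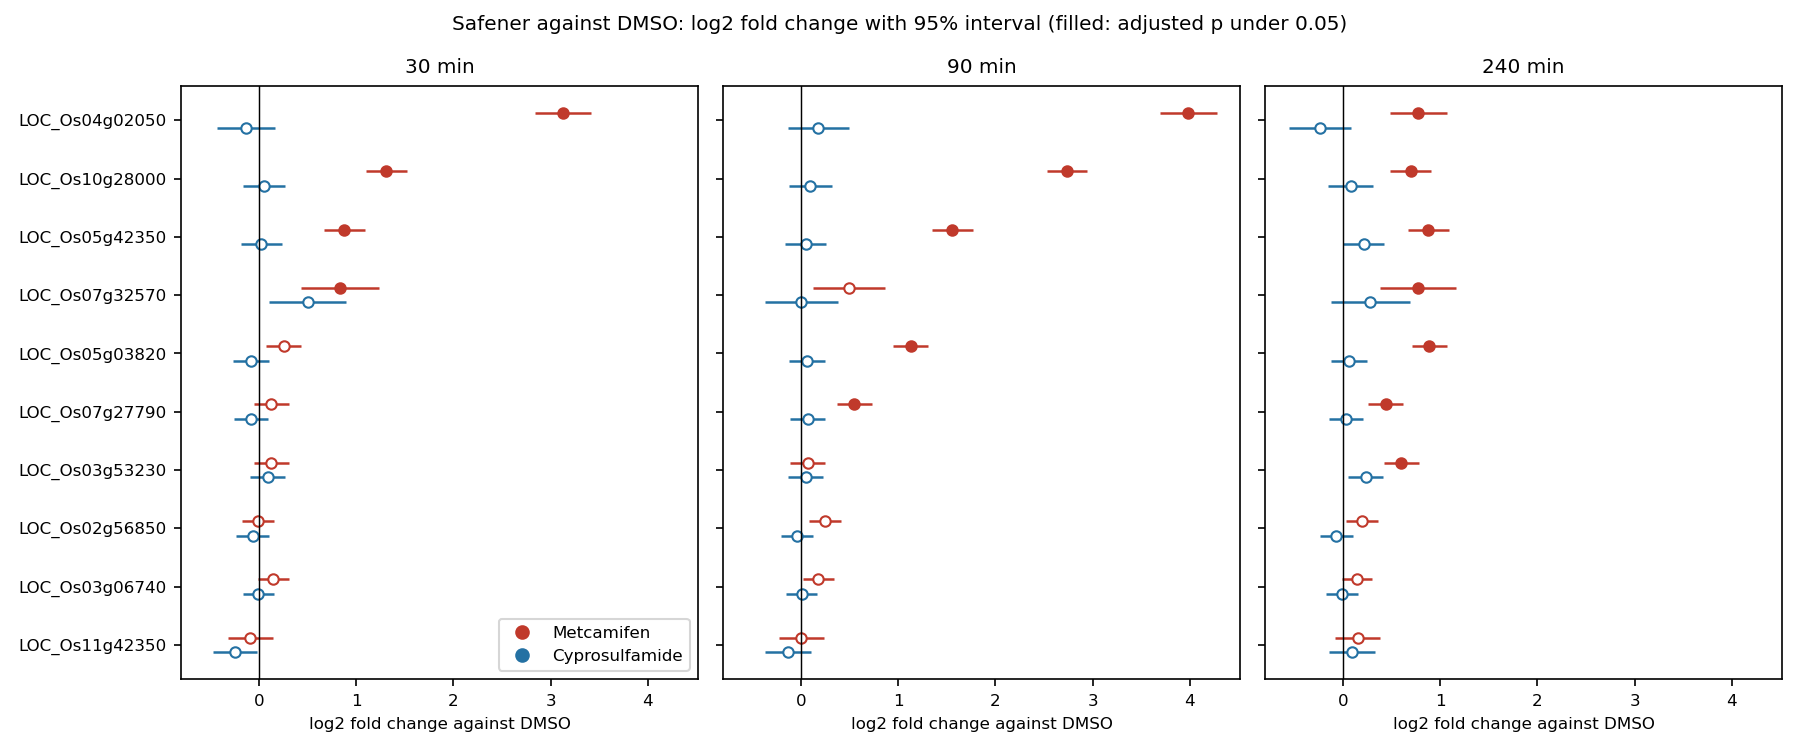
Log2 fold change against DMSO of the same time (horizontal axis) for each of the 10 loci (rows) under metcamifen (red) and cyprosulfamide (blue) at 30, 90 and 240 min. Points are estimates from edgeR, bars are 95% intervals and filled points have an adjusted p under 0.05: 4, 5 and 7 metcamifen points are filled at the 3 times and 0 cyprosulfamide points.

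**Figure D3:**
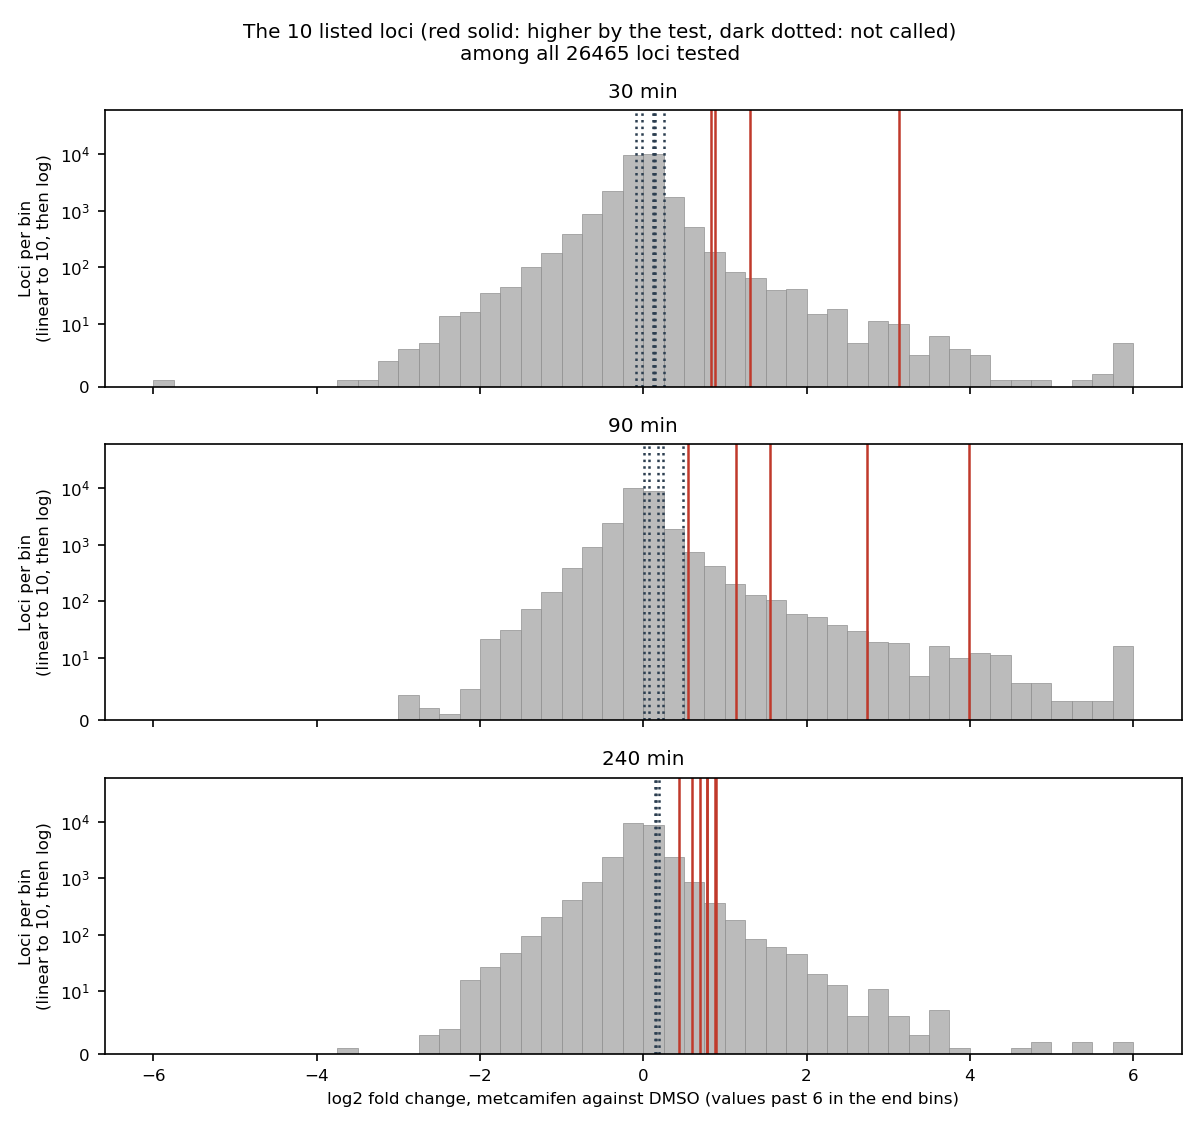
Distribution of the log2 fold change of metcamifen against DMSO over all 26465 loci tested (grey bars, loci per bin, vertical axis linear to 10 and log above) at 30, 90 and 240 min, with the 10 listed loci as vertical lines. Red solid lines are loci called higher and dark dotted lines loci not called; the median of the 10 is 0.20, 0.52 and 0.65 at the 3 times.

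The effect of metcamifen at these loci changed with time by direct test of the change. From 30 to 90 min the effect became more positive at 4 of 10 loci, where 1.52% of all loci were called so, and less positive at 0 (0.178% of all loci). These were LOC_Os10g28000 (log2 change 1.43, SE 0.144, adjusted p = 9.75e-07), LOC_Os05g03820 (0.88, SE 0.124, adjusted p = 0.000114), LOC_Os04g02050 (0.85, SE 0.197, adjusted p = 0.0203) and LOC_Os05g42350 (0.68, SE 0.144, adjusted p = 0.00894). The change of LOC_Os04g02050 lost its call without DMSO_30min replicate 3, DMSO_90min replicate 1, Metcamifen_30min replicate 2 or 3 or Metcamifen_90min replicate 1 (adjusted p up to 0.0702), and with just the libraries compared (0.0560). Same-numbered libraries of DMSO, and of metcamifen, varied together over the times, and with treatment and number as a block the change of LOC_Os07g27790 passed too (log2 0.42, adjusted p = 0.00265, against 0.0865 without the block).

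From 90 to 240 min the effect became less positive at 3 of 10 loci (1.41% of all loci) and more positive at 1 (0.514% of all loci). It fell by 3.21 on the log2 scale at LOC_Os04g02050 (SE 0.199, adjusted p = 5.54e-10). The log2 change was -2.04 at LOC_Os10g28000 (SE 0.145, adjusted p = 4.38e-09) and -0.68 at LOC_Os05g42350 (SE 0.144, adjusted p = 0.00926). It grew at LOC_Os03g53230 (log2 change 0.53, SE 0.123, adjusted p = 0.0212). At LOC_Os05g03820 the change was -0.24 and at LOC_Os07g27790 -0.11, and neither passed (adjusted p = 0.529 and 0.881). The call of LOC_Os05g42350 ended with the libraries numbered 2 and 3 alone (log2 change -0.45, adjusted p = 0.139) and with just the libraries compared (adjusted p = 0.0587). That of LOC_Os03g53230 ended with any of 7 omissions of 1 library, namely DMSO_90min replicate 2 or 3, DMSO_240min replicate 3, Metcamifen_90min replicate 2 or 3 or Metcamifen_240min replicate 2 or 3 (adjusted p up to 0.0820).

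Over the whole span from 30 to 240 min, the effect was called smaller at 2 of 10 loci (0.563% of all loci) and larger at 1 (0.767% of all loci). The log2 change was -2.36 at LOC_Os04g02050 (SE 0.198, adjusted p = 1.92e-07), -0.61 at LOC_Os10g28000 (SE 0.146, adjusted p = 0.0304) and 0.64 at LOC_Os05g03820 (SE 0.124, adjusted p = 0.00637). LOC_Os05g42350 ended where it began, with a change of -0.00071 (95% interval -0.30 to 0.30). The call of LOC_Os10g28000 ended in 11 of 19 alternatives, among them omission of DMSO_30min replicate 2 or 3, DMSO_240min replicate 1 or 2, Metcamifen_30min replicate 1 or 2 or Metcamifen_240min replicate 1 or 2 (adjusted p up to 0.239, with the libraries numbered 2 and 3 alone). With treatment and number as a block 5 loci were called in place of 3, the added ones being LOC_Os03g53230 (adjusted p = 0.0247) and LOC_Os07g27790 (adjusted p = 0.0424), whose effects had grown.

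Cyprosulfamide changed 0 of the 10 loci at 30, 90 or 240 min by edgeR's test, where 0.00378%, 0% and 0% of all loci were called. DESeq2 also called 0 of the 10 at each time, and 58, 0 and 5 of all loci. At an unadjusted p under 0.05 there were 2, 0 and 2 of the 10, and 2548, 818 and 1669 of the 26465 loci tested. With the libraries numbered 2 and 3 alone, 325, 6 and 763 of all loci were called, and still 0 of the 10. Over the 30 combinations of locus and time, the fold against DMSO ran from 0.844 to 1.42, and every 95% interval lay between 0.679 and 1.86. A change of 2-fold in either direction was thus outside the interval at each locus and time. The highest fold was that of LOC_Os07g32570 at 30 min, with 22.02, 35.8 and 28.9 CPM against 16.2, 16.9 and 28.4 CPM in DMSO (log2 0.50, SE 0.190, adjusted p = 0.433). LOC_Os03g53230 at 240 min had 336, 278 and 288 CPM against 257, 271 and 239 CPM (log2 0.23, SE 0.0877, adjusted p = 0.750). It was the sole case of 30 in which the cyprosulfamide libraries lay above the DMSO libraries without overlap, where 5.48%, 4.24% and 5.05% of all loci showed this at 30, 90 and 240 min.

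Metcamifen and cyprosulfamide share an acyl sulfonamide core with a methoxybenzoyl group, and differ on the other ring, which bears a methylurea in metcamifen and a cyclopropyl amide in cyprosulfamide. At the same dose and time, metcamifen was higher at 3 of 10 loci at 30 min (1.18% of all loci), 6 of 10 at 90 min (5.05%) and 6 of 10 at 240 min (2.47%). It was lower at 0 loci, where 0.246%, 1.73% and 1.47% of all loci were called lower. LOC_Os04g02050 under cyprosulfamide had a mean of 11.4 ± 0.888, 11.7 ± 0.474 and 11.4 ± 1.96 CPM at the 3 times (SD, n = 3). All 9 libraries lay below the metcamifen libraries given above, and metcamifen was 9.61-fold, 13.98-fold and 2.02-fold higher at the 3 times (log2 difference 3.26, SE 0.136; 3.81, SE 0.141; 1.01, SE 0.154; adjusted p = 1.07e-13, 3.75e-15 and 0.000149). LOC_Os10g28000 was 2.39-fold, 6.24-fold and 1.53-fold higher (adjusted p = 6.30e-09, 4.40e-15 and 0.000933). LOC_Os05g42350 was 1.81-fold, 2.85-fold and 1.58-fold higher (adjusted p = 4.34e-06, 1.13e-10 and 0.000200).

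LOC_Os05g03820 was 2.10-fold higher under metcamifen than under cyprosulfamide at 90 min and 1.77-fold at 240 min (adjusted p = 3.47e-09 and 1.06e-06), and LOC_Os07g27790 was 1.40-fold and 1.33-fold higher (adjusted p = 0.000449 and 0.00554). LOC_Os02g56850 differed at 90 min by 1.22-fold (adjusted p = 0.0302), which was lost in 9 of 13 alternatives (adjusted p up to 0.268, with the libraries numbered 2 and 3 alone). Among these were the omissions of Metcamifen_90min replicate 1 or 3 or any cyprosulfamide library of that time. LOC_Os03g53230 differed at 240 min by 1.29-fold (adjusted p = 0.0152), which was lost without replicate 2 or 3 of either group (adjusted p up to 0.0985).

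The safeners did not differ by the test at 7, 4 and 4 of the 10 loci at 30, 90 and 240 min. For these the 95% interval of the difference, metcamifen over cyprosulfamide, lay between 0.903 and 1.65 at 30 min, 0.897 and 1.81 at 90 min and 0.884 and 1.86 at 240 min. LOC_Os05g03820 at 30 min came nearest (log2 0.34, SE 0.0877, adjusted p = 0.0583) and passed in 5 of 13 alternatives, among them without Cyprosulfamide_30min replicate 1 (adjusted p = 0.0395) and with the libraries numbered 2 and 3 alone (0.0186). The widest interval at each time was that of LOC_Os07g32570, where metcamifen stood at 1.26, 1.40 and 1.41 times the cyprosulfamide level (adjusted p = 0.611, 0.123 and 0.211). With just the libraries compared in the fit, its 90 min difference passed (log2 0.48, adjusted p = 0.0138). At 90 and 240 min its 3 metcamifen libraries lay above the 3 cyprosulfamide libraries, and at 30 min they overlapped.

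In the carrier cultures LOC_Os07g32570 rose and fell again with time. From 30 to 90 min in DMSO its log2 fold change was 2.53 (SE 0.188, adjusted p = 1.15e-07), and 0 of the 26465 loci tested had a larger one. From 90 to 240 min the log2 fold change was -2.27 (SE 0.185, adjusted p = 7.23e-07), and 9 loci had a lower one. Its levels at 240 and 30 min did not differ by the test (log2 0.26, 95% interval -0.14 to 0.66, adjusted p = 0.663). The peak was also present under cyprosulfamide, with 109, 136 and 112 CPM at 90 min between 22.02 to 35.8 CPM at 30 min and 25.7 to 32.6 CPM at 240 min (log2 2.03 and -1.99, adjusted p = 2.17e-06 and 6.39e-06). Under metcamifen the log2 fold changes were 2.19 and -1.98 (adjusted p = 2.97e-08 and 9.51e-08). The effect of metcamifen on this locus did not change between any of the times by the test (log2 change -0.34, 95% interval -0.89 to 0.20, from 30 to 90 min).

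LOC_Os03g53230 was the other locus called over time in DMSO. It held 228, 259 and 236 CPM at 30 min, 316, 340 and 360 CPM at 90 min and 257, 271 and 239 CPM at 240 min. The 90 min libraries lay above those of both other times. It was higher at 90 than at 30 min (log2 0.49, SE 0.0874, adjusted p = 0.00971) and lower at 240 than at 90 min (log2 -0.41, SE 0.0873, adjusted p = 0.0235). Thus 2 of 10 loci were called higher from 30 to 90 min (0.144% of all loci) and 0 lower (0.0982%). From 90 to 240 min 2 of 10 were lower (0.465%) and 0 higher (0.246%), and from 30 to 240 min 0 of 10 were called (1.89% of all loci in either direction). DESeq2 also called 0 of 10 there, and 644 of all loci, and at an unadjusted p under 0.05 there were 0 of 10 and 3274 of the 26465 loci tested. The DMSO rise of LOC_Os03g53230 ended without DMSO_30min replicate 1 or 3 or DMSO_90min replicate 2 or 3 (adjusted p up to 0.0794), and the fall without DMSO_90min replicate 2 or 3 or DMSO_240min replicate 3 (adjusted p up to 0.155), and both with just the libraries compared (0.281 and 0.324). With treatment and number as a block, LOC_Os05g42350 also passed for 30 to 90 min in DMSO (log2 0.36, adjusted p = 0.0293, against 0.258 without the block), as did LOC_Os04g02050 for 90 to 240 min (log2 0.42, adjusted p = 0.0138, against 0.312).

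**Figure D4:**
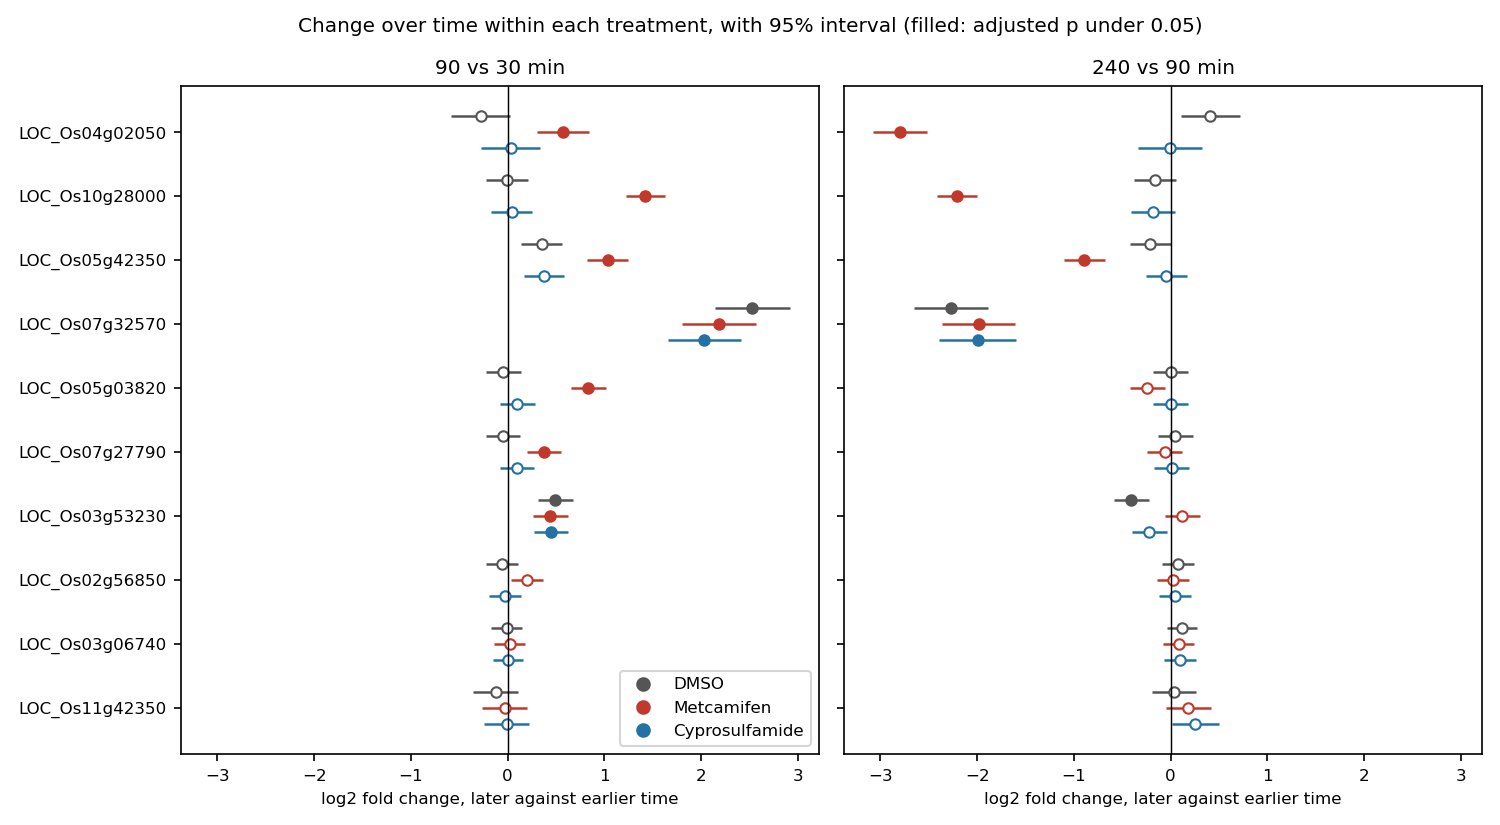
Log2 fold change from 30 to 90 min and from 90 to 240 min (horizontal axis) of each of the 10 loci (rows) within DMSO (grey), metcamifen (red) and cyprosulfamide (blue) cultures. Bars are 95% intervals and filled points have an adjusted p under 0.05; LOC_Os07g32570 moves by 2.03 to 2.53 and then by -2.27 to -1.98 in the 3 treatments.

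Within metcamifen cultures, 7 of 10 loci rose from 30 to 90 min (4.46% of all loci were called higher) and 0 fell (0.945% were called lower). From 90 to 240 min 4 of 10 fell (4.52% were called lower) and 0 rose (2.13% were called higher). Of the 7 that rose, LOC_Os04g02050 (log2 0.57, adjusted p = 0.00685) lost its call without Metcamifen_30min replicate 2 or 3 (adjusted p up to 0.0617). LOC_Os07g27790 (log2 0.37, adjusted p = 0.00790) lost it without replicate 3 of either time (up to 0.0808). Without Metcamifen_90min replicate 2, LOC_Os02g56850 also passed (adjusted p = 0.0229). The 4 that fell were LOC_Os04g02050, LOC_Os10g28000, LOC_Os07g32570 and LOC_Os05g42350. LOC_Os05g03820 went from 677 ± 41.4 to 573 ± 39.97 CPM (SD, n = 3), a log2 change of -0.24 that passed with the block (adjusted p = 0.00983) and not without it (adjusted p = 0.112). From 30 to 240 min, LOC_Os05g03820, LOC_Os07g27790 and LOC_Os03g53230 were higher and LOC_Os04g02050 and LOC_Os10g28000 lower (4.32% and 3.96% of all loci). The call of LOC_Os07g27790 there (log2 0.31, adjusted p = 0.0231) ended without any 1 Metcamifen_30min library or Metcamifen_240min replicate 2 or 3 (adjusted p up to 0.121). The block added LOC_Os02g56850 to those higher (log2 0.22, adjusted p = 0.0169, against 0.0932). In cyprosulfamide cultures, LOC_Os07g32570 and LOC_Os03g53230 rose from 30 to 90 min (2 of 10, with 0.136% of all loci called higher and 0.0567% lower), and LOC_Os07g32570 fell from 90 to 240 min (1 of 10, with 0.404% called lower). From 30 to 240 min 0 of 10 were called (2.03% of all loci), and 0 of 10 in DESeq2, which called 753 of all loci. At an unadjusted p under 0.05 there were 3 of 10, and 4528 of the 26465 loci tested. The rise of LOC_Os03g53230 from 30 to 90 min in cyprosulfamide (log2 0.45, adjusted p = 0.0261) ended without Cyprosulfamide_30min replicate 1 or 3 or Cyprosulfamide_90min replicate 2 or 3 (adjusted p up to 0.191). That call also ended with the libraries numbered 2 and 3 alone (0.0716), thinned libraries (0.0879) or just the libraries compared (0.655).

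Ordered by mean level, Metcamifen_90min was the highest of the 9 groups at 6 of the 10 loci and Metcamifen_240min at the other 4. The first group overlapped the second at all of those 4 loci and at LOC_Os07g27790. How often these groups came first over all loci was not counted, so the order describes the listed loci alone. Group means spanned a ratio of 15.8 from lowest to highest at LOC_Os04g02050, 8.12 at LOC_Os07g32570, 7.46 at LOC_Os10g28000 and 3.76 at LOC_Os05g42350. The span was 2.25 at LOC_Os05g03820, 1.61 at LOC_Os03g53230, 1.49 at LOC_Os07g27790 and at most 1.24 at the remaining 3. At LOC_Os04g02050 and LOC_Os10g28000 the 3 metcamifen groups each stood clear of the next group in the order, while among the 6 DMSO and cyprosulfamide groups every neighbour overlapped. At LOC_Os07g32570 the 3 groups of 90 min held the first 3 places, of which DMSO and cyprosulfamide overlapped. At LOC_Os11g42350, LOC_Os02g56850 and LOC_Os03g06740 each group overlapped its neighbour throughout the order.

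The listed locus with the widest range over the 9 groups was LOC_Os04g02050, at 3.99 on the log2 CPM scale. Among 14390 other loci with a mean of at least 10 CPM, the profiles over the 9 group means most like it were those of LOC_Os06g11290 (Pearson r = 0.995) and LOC_Os01g34480 (r = 0.994). LOC_Os06g11290 stood at 2060 and 2577 CPM under metcamifen at 30 and 90 min and at 284 to 372 CPM in the DMSO and cyprosulfamide groups. Within the list, r with LOC_Os04g02050 was 0.950 for LOC_Os10g28000, 0.864 for LOC_Os05g42350, 0.745 for LOC_Os05g03820 and 0.722 for LOC_Os07g27790. It was 0.337 for LOC_Os07g32570 and 0.172 for LOC_Os03g53230. Of the 3 loci not called against DMSO, LOC_Os03g06740 had r = 0.606, LOC_Os02g56850 r = 0.576 and LOC_Os11g42350 r = 0.0763, so r did not follow the size of the change. These r are descriptions over 9 points that share libraries and a common scaling.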

How the data were processed

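PolyA RNA of 27 samples of rice suspension cells was sequenced. The authors deposited read counts per locus, whole numbers not normalized, as the values show; GSNAP and edgeR are named in the submitters' processing notes. Genome build, annotation, strand and the treatment of multiply mapped reads were not given in the sources used here. Values of overlapping loci and of loci with a close paralog are therefore uncertain. Groups follow the labels' treatment and time. Library numbers run in the order of the libraries within each group, where the sample titles differ only in a library code.

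Loci were kept by filterByExpr (minimum count 10, minimum total 15), scaled by TMM and fitted with 9 group means in edgeR 4.0.16 (glmQLFit and glmQLFTest, R 4.3.3, 18 residual degrees of freedom). Benjamini-Hochberg adjustment ran over all 26465 loci in each of 21 contrasts, two-sided, of which 6, over time within the safener cultures, were added after the data were seen. SEs and 95% intervals come from the fitted weights and quasi-dispersion. Log2 CPM used a prior count of 2. The test was checked on simulated counts drawn independently for each library. These lack the variation that same-numbered libraries share, so the check does not cover the test under such variation. Alternatives were DESeq2 1.42.0, RLE scaling, no filter, thinning, the compared libraries alone, a replicate block, omission of each library and, added later, the libraries numbered 2 and 3 alone.

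The members, lists and rules were chosen with earlier results of these data known. All 10 loci are named, and 2 loci most like the widest-ranging one. Deviations of same-numbered libraries correlated at 0.354 to 0.824 over the times in DMSO and 0.246 to 0.738 in metcamifen. A shared number was therefore treated as a pair over time in the replicate block alternative, but the main fit held no block. The main SEs, adjusted p and shares of all loci for changes over time thus leave this pairing out. The 18 residual degrees of freedom, used for every contrast between treatments as well, also count the libraries as independent. Metcamifen and DMSO deviations correlated at -0.837 to -0.292, and the main fit did not pair them. For contrasts between treatments, the replicate block alternative nevertheless held number terms shared by all treatments. Identical library columns numbered 0.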

Additional observations from a re-analysis of the deposited data

Results flagged for a closer look

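The effect of metcamifen against DMSO differed between times, by a direct test of the change in edgeR's fit, in 11 cases over 5 of the listed loci. From 30 to 90 min the log2 effect changed by 0.88 at LOC_Os05g03820, 1.43 at LOC_Os10g28000, 0.85 at LOC_Os04g02050 and 0.68 at LOC_Os05g42350. From 90 to 240 min it changed by -2.04 at LOC_Os10g28000, 0.53 at LOC_Os03g53230, -3.21 at LOC_Os04g02050 and -0.68 at LOC_Os05g42350. From 30 to 240 min it changed by 0.64 at LOC_Os05g03820, -0.61 at LOC_Os10g28000 and -2.36 at LOC_Os04g02050. Of all loci, 1.52% were called more positive and 0.178% less positive from 30 to 90 min. The shares were 0.514% and 1.41% from 90 to 240 min, and 0.767% and 0.563% from 30 to 240 min. These cases were not equally firm. The call held in 8 of 19 alternatives at LOC_Os10g28000 from 30 to 240 min and in 12 of 19 at LOC_Os03g53230 from 90 to 240 min. It held in 13 of 19 at LOC_Os04g02050 from 30 to 90 min and in 17 of 19 at LOC_Os05g42350 from 90 to 240 min. The other cases held under every alternative. Groups of 3 libraries are too small for a test of a library far from the others.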

How the results depend on the processing

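Of 65 calls of a listed locus, 49 held under every alternative tried, and of 145 differences that were not called, 130 stayed so; 0 calls changed direction. The fit to the compared libraries alone called 4 loci in place of 7 for metcamifen against DMSO at 240 min, 1 in place of 2 for DMSO from 30 to 90 min and from 90 to 240 min, and 1 in place of 2 for cyprosulfamide from 30 to 90 min. That last count was also 1 when thinned to the smallest library and with the libraries numbered 2 and 3 only. The replicate block called 5 in place of 3 for the change of the metcamifen effect from 30 to 240 min. For cyprosulfamide from 30 to 240 min the block called 1 locus, LOC_Os05g42350 (adjusted p = 0.0167), in place of 0, and from 30 to 90 min it added the same locus (adjusted p = 0.0194), 3 in place of 2. Same-numbered cyprosulfamide libraries of 30 and 90 min correlated at 0.411, 0.262 and -0.0481 for numbers 1, 2 and 3. For 30 and 240 min these r were 0.285, 0.221 and -0.0791. Numbers 1 and 2 thus varied together and number 3 did not, so pairing with 30 min is unclear in cyprosulfamide. Cyprosulfamide libraries of 90 and 240 min correlated at 0.201 to 0.548, and there the block changed no call of a listed locus. Between treatments the block was another one, with number terms shared by all treatments. It called LOC_Os05g03820 between the safeners at 30 min (adjusted p = 0.0418). Same-numbered metcamifen and cyprosulfamide libraries of 30 min correlated at -0.261, -0.112 and 0.0993 for numbers 1, 2 and 3, so pairing is unclear there too. Omission of 1 library gave 1 to 2 calls for DMSO from 30 to 90 min, DMSO from 90 to 240 min and cyprosulfamide from 30 to 90 min. The cause of these shifts was not tested. The smallest library limits cyprosulfamide at 240 min, where LOC_Os04g02050 had as few as 52 counts. Counts over all loci, which set the background shares, also moved. With the libraries numbered 2 and 3 only, metcamifen against DMSO called 2134 loci in place of 356 at 30 min and 3345 in place of 1231 at 240 min, where the compared libraries alone called 386. In the same setting cyprosulfamide against DMSO called 325, 6 and 763 loci in place of 1, 0 and 0. The replicate block called 1484, 1646 and 1002 loci in place of 448, 510 and 352 for the changes of the metcamifen effect, and 441, 997 and 1856 in place of 64, 188 and 499 for the changes over time in DMSO. The compared libraries alone called 13, 1 and 0 there. Over time the block called 505, 887 and 2296 in place of 51, 143 and 538 in cyprosulfamide, and 2741, 3900 and 4271 in place of 1431, 1760 and 2193 in metcamifen. Omission of 1 library gave 0 to 109 loci in place of 1 for cyprosulfamide against DMSO at 30 min, 146 to 1334 in place of 538 for cyprosulfamide from 30 to 240 min, and 179 to 581 in place of 499 for DMSO from 30 to 240 min. Other counts over all loci that moved by over 1.5 times are not listed here.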
